A study of Homo sapiens with 54 samples.

Results

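The kallikrein genes KLK2, KLK3, KLK4, KLK11 and KLK15 were taken from the TPM table by their symbols, 5 of 60642 symbols measured, and described in 54 LNCaP xenograft tumors. LNCaP is an androgen-sensitive human prostate cancer line grown from a lymph node metastasis, and all tumors came from its FGC clone, so they share 1 genetic origin. About 1000000 cells were injected under the skin of male NOD-SCID mice, which lack working B and T cells and were 5 to 6 weeks old on arrival, and surgery followed when a tumor reached about 200 mm3. PRE-CX tumors (n = 9) grew in mice with mock surgery and were taken at 1000 mm3, whereas all other tumors grew in castrated mice. POST-CX tumors (n = 8) were taken 1 week after castration, at the nadir of serum prostate specific antigen (PSA). CRPC tumors (n = 10) were taken when PSA had returned to its level before castration or the tumor had reached 1000 mm3. Mice of the remaining groups received the antiandrogen enzalutamide by mouth, 10 mg/kg on 5 days a week, from the time PSA began to rise after castration. ENZS tumors (n = 12) were taken at the second PSA nadir, and ENZR tumors (n = 15) when PSA was back at its level before the drug or at 1000 mm3.

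Kallikreins are secreted serine proteases that are made as inactive precursors and cleave one another as well as other proteins. In the prostate, luminal cells make KLK3, which is PSA itself, a protease with chymotrypsin-like specificity that liquefies semen by cutting semenogelins. KLK2 and KLK4 have trypsin-like specificity and, like KLK15, can activate the PSA precursor, while KLK11 is made in the prostate and in other epithelia. Androgens drive KLK3 and KLK2 through elements in their promoters and in enhancers upstream. Because serum PSA decided when POST-CX, CRPC, ENZS and ENZR tumors were collected, the KLK3 transcript level of these groups is not independent of how the groups were made, and its differences are described with that limit. Tissue TPM as deposited also cannot tell fewer human cells from less kallikrein RNA per cell. TPM rescaled to the human total, described below, take out the human share of a tumor but still give no amount per cell.

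The genes lie in the kallikrein cluster of chromosome 19, with coordinates from RefSeq on GRCh38.p14, the build family to which the reads were aligned. KLK15 (19, 50825289 to 50833574, minus strand), KLK3 (50854915 to 50860764, plus), KLK2 (50873439 to 50880567, plus) and KLK4 (50906351 to 50911395, minus) stand next to each other, interrupted by the transcribed pseudogene KLKP1 (50882096 to 50896398) only. KLK11 (51022236 to 51027991, minus) lies beyond 6 further kallikreins. Levels were highest in the stretch from KLK15 to KLK4. Medians over the 54 tumors were 3.97 TPM for KLK15, 2543 TPM for KLK3, 135 TPM for KLK2, 7.62 TPM for KLKP1 and 392 TPM for KLK4. KLK1, just before KLK15, had a median of 0.895 TPM and reached 1 TPM in 25 of 54 tumors. Past KLK4 the level dropped, with a median of 0 TPM for KLK5, KLK6, KLK7, KLK8, KLK9 and KLK10, 0.0700 TPM for KLK11, 0.0200 TPM for KLK12, 0 TPM for KLK13 and 0.225 TPM for KLK14.

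The promoters of KLK3, KLK2 and KLK4 are shown because KLK4 differed from KLK3 and KLK2 in its levels across the groups. Each runs from 250 bases before to 50 bases after the transcript start in RefSeq (GRCh38.p14), at chr19:50854665-50854964 on the plus strand for KLK3, chr19:50873189-50873488 on the plus strand for KLK2, and chr19:50911346-50911645 on the minus strand for KLK4. Capitals mark matches of a loose androgen response element (GNAC, any 5 bases, GTNC) and of the TATA motif TATAAA, both searched on either strand.
KLK3: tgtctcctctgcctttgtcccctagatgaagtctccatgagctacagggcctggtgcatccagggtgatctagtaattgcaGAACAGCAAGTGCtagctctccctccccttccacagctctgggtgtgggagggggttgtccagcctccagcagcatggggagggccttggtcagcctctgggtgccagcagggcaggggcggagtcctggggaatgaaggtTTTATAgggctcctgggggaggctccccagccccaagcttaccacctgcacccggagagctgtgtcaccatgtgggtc
KLK2: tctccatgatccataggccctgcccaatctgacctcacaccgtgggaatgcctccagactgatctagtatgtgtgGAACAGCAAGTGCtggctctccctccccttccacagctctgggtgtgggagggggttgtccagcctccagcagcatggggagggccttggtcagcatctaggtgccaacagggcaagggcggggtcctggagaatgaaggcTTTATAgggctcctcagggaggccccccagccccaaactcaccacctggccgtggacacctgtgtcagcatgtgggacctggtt
KLK4: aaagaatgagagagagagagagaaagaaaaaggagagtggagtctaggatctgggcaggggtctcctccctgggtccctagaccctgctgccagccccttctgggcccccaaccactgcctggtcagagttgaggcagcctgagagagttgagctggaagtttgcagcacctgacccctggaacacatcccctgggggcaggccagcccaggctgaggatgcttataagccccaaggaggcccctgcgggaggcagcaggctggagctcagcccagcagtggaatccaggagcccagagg
KLK3 held the element from base -169 and KLK2 from base -175, while the windows of KLK4, KLK11 and KLK15 held none. Of 34943 promoters of the same length, 4.91% held it. In KLK3 it overlapped the hexamer AGAACA, a combination found in 0.326% of promoters, whereas KLK2 had no AGAACA (14.8% of promoters do). TATAAA on either strand was found in the KLK3, KLK2 and KLK15 windows and in 11.6% of all promoters. The windows of KLK2 and KLK3 matched at 88.4% of 284 aligned bases and shared an unbroken run of 80 bases, against runs of 8 to 9 bases in every other pair of these 5 genes. A match is a description of the letters and does not show that a factor binds. Whether the element is related to the levels across the groups was not tested. No window of 125 bases, the read length, was shared between the transcripts of KLK2 (7424 windows), KLK3 (5619), KLK4 (2480), KLK11 (3674) or KLK15 (3796) and those of any other kallikrein.

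The libraries were first checked as a whole. Luminal markers (KRT8, KRT18, EPCAM and 7 others) averaged 1 TPM or more in each group for 10 of 10 genes, with summed levels of 2425 to 4112 TPM in PRE-CX and 384 to 4109 TPM in ENZR. The defining basal markers TP63 and KRT5 reached at most 0.05 and 0.130 TPM in any tumor, and the neuroendocrine markers CHGA and INSM1 reached 1.69 and 1.12 TPM in POST-CX and stayed at or under 0.270 TPM elsewhere. Both lists held higher genes too. Of the 6 basal markers, ITGA6 had group medians of 11.8 to 20.7 TPM and KRT14 reached 9.50 TPM in ENZR. Of the 9 neuroendocrine markers, ENO2 had group medians of 32.5 to 80.1 TPM and SYP reached 2.80 TPM in ENZS. Of 14 stromal and blood markers, the summed human TPM had a median of 14.6 in PRE-CX, 20.5 in POST-CX, 26.7 in CRPC, 46.8 in ENZS and 53.9 in ENZR. The injected cells were all LNCaP, and stroma and blood came from the mouse, so these human TPM do not measure the amount of stroma. Which cells or reads gave them was not tested. The human TPM of a tumor summed to 12.1% to 97.5% of 1000000 (median 89.9%), and 2 tumors were below 50%, POST-CX mouse 91 at 27.9% and ENZR mouse 87 at 12.1%. Such a total lowers every human gene of a tumor alike, so the tests were repeated after rescaling every tumor to 1000000 ("rescaled TPM"), and the rescaled value of KLK2, KLK3, KLK4 or KLK15 is given where rescaling changed a call or a direction. The 6 cycling markers moved with the drug groups too, with a median sum of 452 TPM in PRE-CX, 318 in POST-CX, 273 in CRPC, 48.4 in ENZS and 103 in ENZR. The part of either list in the kallikrein differences was not tested. No 2 tumors had identical values, and the labels name a separate mouse for each.

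KLK3 was by far the most abundant member, and its level differed widely between the stages of treatment. Deposited TPM of KLK3 ran from 1779 to 6333 in PRE-CX (median 3868), from 169 to 2560 in POST-CX (median 1354), from 2525 to 6397 in CRPC (median 4388), from 214 to 4483 in ENZS (median 2487) and from 11.2 to 6042 in ENZR (median 1126). CRPC tumors thus lay in the PRE-CX range or just above it, while 6 of 8 POST-CX, 5 of 12 ENZS and 11 of 15 ENZR tumors lay below it. KLK3 made up 0.459% ± 0.147 of all human TPM in PRE-CX tumors (SD, n = 9), 0.167% ± 0.0905 after castration (n = 8) and 0.465% ± 0.117 at CRPC (n = 10). Under enzalutamide the share was 0.262% ± 0.152 at response (n = 12) and 0.201% ± 0.199 at resistance (n = 15). By its group mean it ranked 17 among all genes in PRE-CX and 73 in POST-CX.

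**Figure D1:**
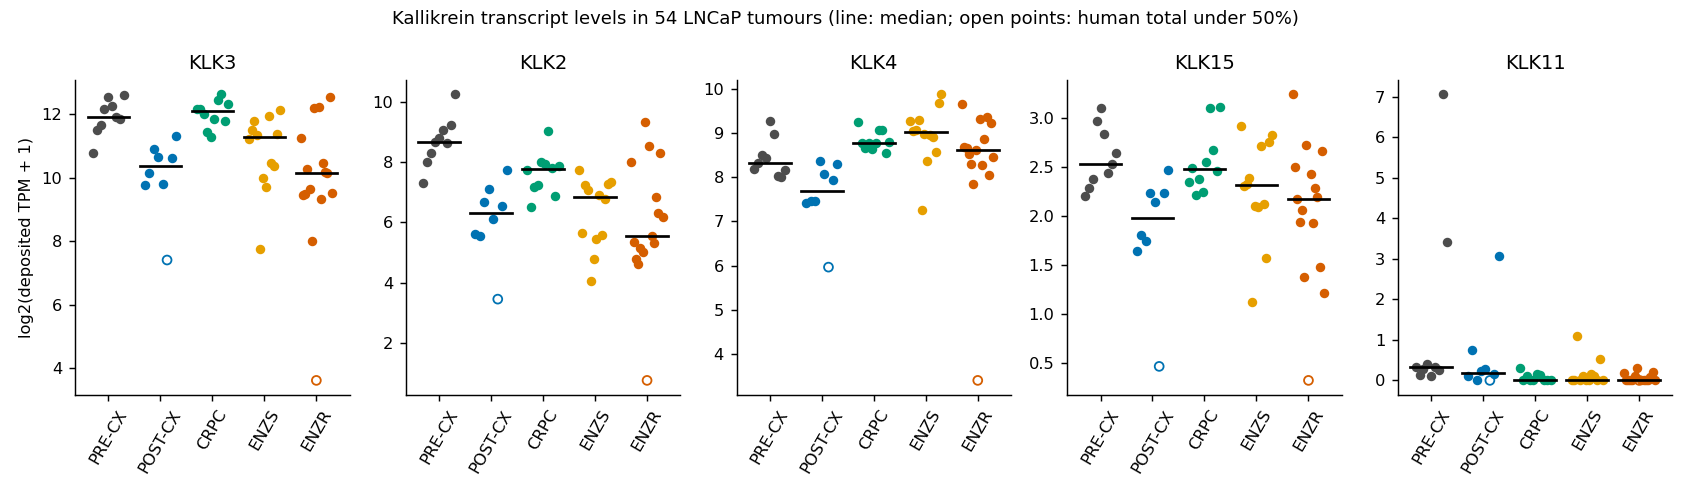
Level of KLK3, KLK2, KLK4, KLK15 and KLK11 in each of 54 tumors as log2(deposited TPM + 1), on a separate scale per gene, with the 5 groups along the horizontal axis and a line at each group's median. Open points are the 2 tumors whose human TPM summed to under 50% of 1000000. KLK3 and KLK2 are low in most POST-CX and ENZR tumors, KLK4 is not low in ENZS or ENZR as a group, and KLK11 is above 9 TPM in 2 PRE-CX tumors only.

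Differences between groups were tested with limma on log2(TPM + 1) over 17131 genes, and a gene counted as called where the Benjamini-Hochberg adjusted p was under 0.05 and the groups differed by 1 or more in either direction. KLK2, KLK3, KLK4 and KLK15 passed the expression filter (at least 1 TPM in 8 tumors) and KLK11, at 1 TPM or more in 4 tumors, did not. Against PRE-CX, 2.62% of genes tested were called in POST-CX, 3.17% in CRPC, 12.7% in ENZS and 8.55% in ENZR. With rescaled TPM these shares were 3.75%, 3.4%, 13.9% and 10.5%. Rescaling moved the median over all genes from -0.05 to 0.16 in POST-CX and from 0.07 to 0.25 in ENZR against PRE-CX, from 0.17 to -0.07 in CRPC against POST-CX, from -0.05 to 0.16 in ENZR against CRPC and from -0.19 to -0.04 in ENZR against ENZS. Of called genes, 35% were higher in POST-CX than in PRE-CX as deposited and 65.5% rescaled, and in ENZR 54.4% and 72.5%. In CRPC the share was 68.3% and in ENZS 74.3%, but 53.1% and 48.3% after centering each tumor on its median.

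After castration the log2 difference of KLK3 between POST-CX and PRE-CX was -1.85 (SE 0.63), which missed the threshold as deposited (limma adjusted p = 0.0825) and passed it with rescaled TPM (-1.58, SE 0.52, adjusted p = 0.0198). In CRPC its fitted difference from PRE-CX was 0.09 (95% interval -1.10 to 1.28). In ENZS the difference from PRE-CX was -1.13 (SE 0.57, adjusted p = 0.111), and it was called with rescaled TPM (-1.09, adjusted p = 0.0401). KLK3 fell in ENZR against PRE-CX, with a difference of -2.04 (SE 0.55, adjusted p = 0.00315), and rescaling left it called at -1.80 (adjusted p = 0.000646). Without the 2 tumors of low human total KLK3 was called in POST-CX (-1.47, adjusted p = 0.0283), in ENZS (-1.13, adjusted p = 0.0173) and in ENZR (-1.59, adjusted p = 0.000840).

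KLK2 encodes the protease closest to PSA in sequence and had the largest fitted falls of the members against PRE-CX. Deposited TPM of KLK2 ran from 158 to 1222 in PRE-CX (median 409), from 9.95 to 210 in POST-CX (median 80.2), from 89.9 to 528 in CRPC (median 217), from 15.6 to 211 in ENZS (median 113) and from 0.690 to 643 in ENZR (median 45.9). Below the lowest PRE-CX tumor were 7 of 8 POST-CX, 4 of 10 CRPC, 10 of 12 ENZS and 11 of 15 ENZR tumors, so the groups overlapped in every comparison. KLK2 fell in 3 groups, with log2 differences from PRE-CX of -2.60 for POST-CX (SE 0.64, limma adjusted p = 0.00729), -2.38 for ENZS (SE 0.58, adjusted p = 0.000776) and -2.70 for ENZR (SE 0.55, adjusted p = 0.000135), and all 3 stayed called after rescaling and without the 2 tumors of low human total. Unlike KLK3, KLK2 had a mean in CRPC below that of PRE-CX, 219 against 482 TPM, though the difference of -1.08 (95% interval -2.28 to 0.12) missed the threshold (adjusted p = 0.325). It passed when only PRE-CX and CRPC tumors entered the fit (adjusted p = 0.0154).

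KLK4, a trypsin-like kallikrein also known for the maturation of tooth enamel, was not called against PRE-CX in any group. Deposited TPM of KLK4 ran from 256 to 612 in PRE-CX (median 316), from 61.5 to 328 in POST-CX (median 209), from 370 to 610 in CRPC (median 437), from 151 to 941 in ENZS (median 515) and from 9.60 to 802 in ENZR (median 388). Below the PRE-CX range lay 5 of 8 POST-CX tumors, 0 of 10 CRPC, 1 of 12 ENZS and 2 of 15 ENZR tumors, and above it 4 of 12 ENZS and 3 of 15 ENZR tumors. The log2 differences were -0.81 (95% interval -1.65 to 0.03) in POST-CX, 0.40 (-0.39 to 1.20) in CRPC, 0.51 (-0.25 to 1.27) in ENZS and -0.08 (-0.81 to 0.65) in ENZR. In ENZR the direction depended on the scaling, with 0.16 for rescaled TPM and 0.27 without the 2 tumors of low human total.

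KLK15 encodes a protease found in small amounts in the prostate, and its transcript was low throughout. Deposited TPM of KLK15 ran from 3.60 to 7.54 in PRE-CX (median 4.77), from 0.380 to 4.54 in POST-CX (median 2.96), from 3.63 to 7.61 in CRPC (median 4.55), from 1.17 to 6.56 in ENZS (median 3.97) and from 0.250 to 8.45 in ENZR (median 3.49). Its log2 differences from PRE-CX were -0.75 (SE 0.26) in POST-CX, -0.04 (SE 0.25) in CRPC, -0.33 (SE 0.24) in ENZS and -0.56 (SE 0.23) in ENZR, and none reached the size for a call. The pseudocount of 1 TPM shrinks differences at this level.

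**Figure D2:**
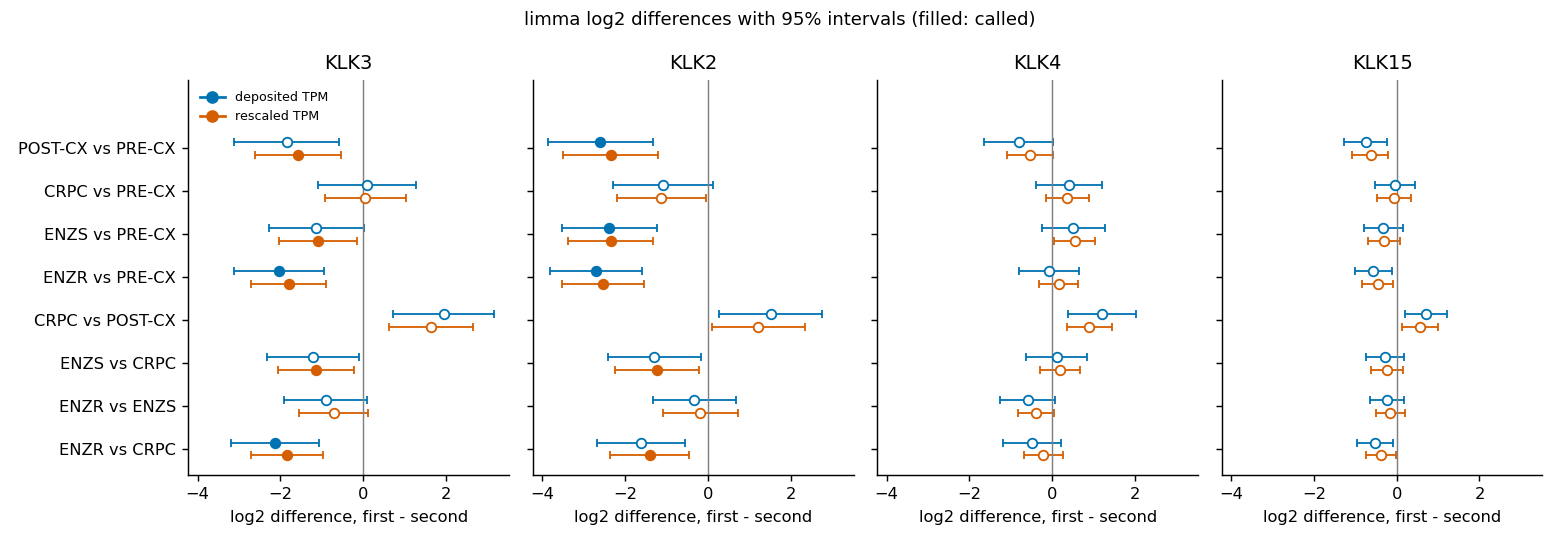
Log2 differences (first group minus second) of KLK3, KLK2, KLK4 and KLK15 in 8 comparisons, from limma on log2(TPM + 1), with 95% intervals as bars. Blue marks deposited and orange rescaled TPM, and filled points were called. All calls belong to KLK2 and KLK3, and all called points are below 0.

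Relapse after castration was compared with the castrated state (CRPC against POST-CX). All 10 CRPC tumors lay above the POST-CX range for KLK4, 9 of 10 for KLK3, 6 of 10 for KLK2 and 5 of 10 for KLK15. The log2 differences were 1.94 (SE 0.61) for KLK3, 1.52 (SE 0.62) for KLK2, 1.21 (SE 0.41) for KLK4 and 0.71 (SE 0.25) for KLK15. None passed (limma adjusted p 0.449, 0.672, 0.517 and 0.594), in a comparison in which 0% of genes was called and 1154 genes had an unadjusted p under 0.05. With rescaled TPM 0.0117% of genes was called, again no member. Fitted on these 18 tumors alone, the same differences of KLK3 and KLK4 were called, at adjusted p 0.0113 and 0.0333.

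Response to enzalutamide was compared with castration resistance (ENZS against CRPC), where 2.42% of genes tested were called as deposited and 2.9% rescaled. Of called genes, 44.9% and 56.1% were higher. Below the CRPC range were 6 of 12 ENZS tumors for KLK3 and 5 of 12 for KLK2. KLK3 differed by -1.22 (SE 0.55, limma adjusted p = 0.169) and KLK2 by -1.29 (SE 0.56, adjusted p = 0.142), and both were called with rescaled TPM, at -1.14 (adjusted p = 0.0425) and -1.22 (adjusted p = 0.0484). Without the 2 tumors of low human total, neither of which is in these groups but which enter the shared estimate of the spread, both were called (adjusted p 0.0205 and 0.0320). For KLK4 the difference was 0.11 (95% interval -0.63 to 0.85), with 4 of 12 ENZS tumors above the CRPC range and 2 below it.

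Resistance to enzalutamide was compared with the response to it. From ENZS to ENZR the log2 differences were -0.91 (95% interval -1.92 to 0.09) for KLK3, -0.32 (-1.33 to 0.69) for KLK2, -0.59 (-1.26 to 0.08) for KLK4 and -0.23 (-0.65 to 0.18) for KLK15. No member was called, and 0.00584% of genes was called as deposited and 0% rescaled, with 1914 and 1702 genes at an unadjusted p under 0.05. Of 15 ENZR tumors, 3 lay above the ENZS range of KLK3 and 1 below it. In ENZR, KLK3 was at 6042, 4826, 4736 and 2464 TPM in mice 104, 94, 75 and 21, and between 11.2 and 1423 TPM in the other 11 tumors. KLK2 was at 318, 367, 643 and 255 TPM in the same 4 tumors, and at most at 113 TPM in the others. The human totals of these 4 tumors were 90.1%, 94.3%, 94.9% and 93.2%, within the 66.7% to 94.5% of the others apart from mouse 87 (12.1%) or just above them.

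Against CRPC, KLK3 fell in ENZR, with a difference of -2.13 (SE 0.53, limma adjusted p = 0.0140). Below the CRPC range lay 12 of 15 ENZR tumors, and rescaling left KLK3 called at -1.85 (adjusted p = 0.00227). Of all genes, 1.37% were called here as deposited and 1.52% rescaled, of which 12.4% and 44.8% were higher. The call of KLK3 was lost without the expression filter (adjusted p = 0.0576) and when only these groups entered the fit (adjusted p = 0.0557). KLK2 differed by -1.61 (SE 0.53, adjusted p = 0.0816) as deposited and was called after rescaling at -1.40 (adjusted p = 0.0263). KLK4, with -0.48 (95% interval -1.19 to 0.22), and KLK15, with -0.52 (SE 0.22), were not called. Without the 2 tumors of low human total, KLK3 was still called at -1.68 (adjusted p = 0.00352) and KLK2 missed the threshold at -1.24 (adjusted p = 0.0553).

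The steps into the 2 kinds of relapse were compared directly as the change from ENZS to ENZR minus the change from POST-CX to CRPC. This difference was -2.85 (SE 0.79) for KLK3, -1.80 (SE 0.53) for KLK4, -1.84 (SE 0.80) for KLK2 and -0.95 (SE 0.33) for KLK15 on the log2 scale. None passed (limma adjusted p 0.0887, 0.106, 0.214 and 0.154), and 0.187% of genes were called as deposited and 0.0759% rescaled. Without the 2 tumors of low human total the difference of KLK4 was -1.22 and passed (adjusted p = 0.0428), and with rescaling as well it was -1.08 and did not (adjusted p = 0.0559). After centering, KLK3 and KLK4 passed.

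Within a tumor, the ratio of the TPM of 2 genes does not depend on the share of human transcripts. The log2 ratio tested below adds 1 TPM to each gene and so still depends on that share where a level is low. In PRE-CX the KLK4 level was 9.38% ± 3.48 (SD, n = 9) of that of KLK3. It was 19.8% ± 9.23 after castration (POST-CX, n = 8), 11.2% ± 2.74 at CRPC (n = 10), 30.8% ± 16.4 under the drug (ENZS, n = 12) and 42.3% ± 25.1 at resistance to it (ENZR, n = 15). Single tumors ran from 4.50% to 16.4% in PRE-CX, from 8.31% to 15.7% in CRPC, from 12.3% to 70.7% in ENZS and from 8.19% to 90.7% in ENZR. Hence 10 of 12 ENZS and 12 of 15 ENZR tumors were above every PRE-CX tumor on the scale tested, log2(TPM + 1) of KLK4 minus that of KLK3.

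Group means of this log2 ratio were compared by two-sided permutation tests, exact where a group had fewer than 10 tumors and otherwise with 100000 resamples, adjusted over 32 tests (4 ratios to KLK3 in 8 comparisons). KLK4 over KLK3 was higher than in PRE-CX by 1.04 (SE 0.29) in POST-CX (exact permutation, adjusted p = 0.00562), by 1.64 (SE 0.27) in ENZS (exact, adjusted p = 0.000490) and by 1.96 (SE 0.33) in ENZR (exact, adjusted p = 0.000720). It did not pass in CRPC, with 0.31 (SE 0.21, exact adjusted p = 0.199). Both enzalutamide groups were above CRPC, ENZS by 1.32 (SE 0.23, permutation, adjusted p = 0.000720) and ENZR by 1.64 (SE 0.29, permutation, adjusted p = 0.00110). From POST-CX to CRPC the ratio fell by 0.72 (SE 0.25, exact adjusted p = 0.0126), and from ENZS to ENZR it moved by 0.32 (SE 0.34, permutation, adjusted p = 0.430). Serum PSA decided when POST-CX, CRPC, ENZS and ENZR tumors were collected. Every ratio to KLK3 is therefore not independent of how the groups were made, and these p-values carry that limit.

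KLK2 over KLK3, a ratio with the same limit, went the other way. The KLK2 level of PRE-CX tumors was 11.1% ± 3.95 (SD, n = 9) of that of KLK3, against 6.34% ± 1.56 for POST-CX (n = 8), 5.26% ± 2.66 for CRPC (n = 10), 4.90% ± 2.27 for ENZS (n = 12) and 7.17% ± 3.45 for ENZR (n = 15). Against PRE-CX the log2 ratio was lower, with differences of -0.75 (SE 0.20) in POST-CX (exact permutation, adjusted p = 0.00204), -1.17 (SE 0.27) in CRPC (exact, adjusted p = 0.00204) and -1.25 (SE 0.25) in ENZS (exact, adjusted p = 0.000925). In ENZR it was -0.65 (SE 0.26) and missed the threshold (exact, adjusted p = 0.0668), which it passed with rescaled TPM (-0.72). In CRPC, where no tumor lay below the PRE-CX range of KLK3, 8 of 10 tumors held less KLK2 for their KLK3 than any PRE-CX tumor.

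**Figure D3:**
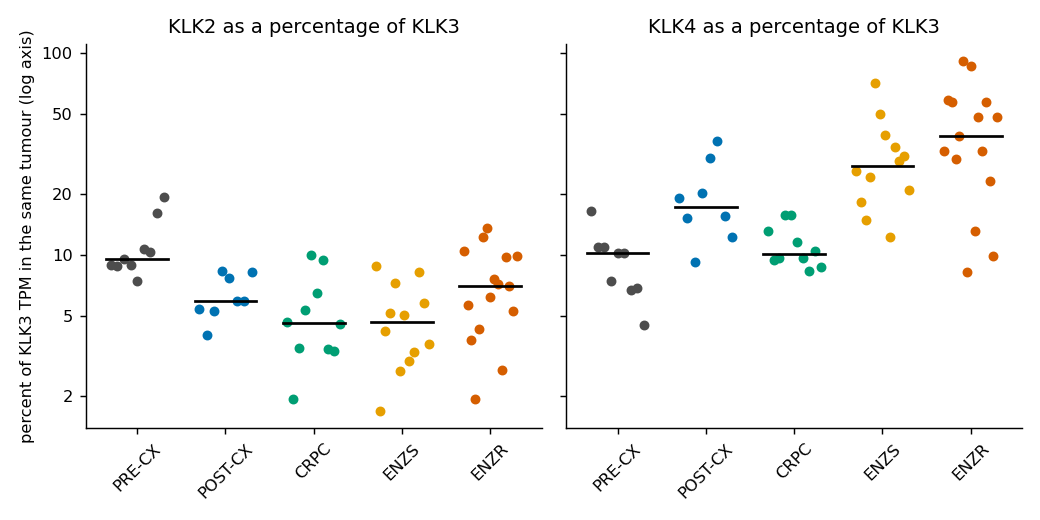
KLK2 (left) and KLK4 (right) as a percentage of KLK3 TPM in the same tumor, on a log axis, for 54 tumors in 5 groups with a line at each group's median. The KLK4 medians of ENZS (27.5%) and ENZR (38.9%) stand above those of PRE-CX (10.2%) and CRPC (10.1%), and the KLK2 median is highest in PRE-CX (9.59%).

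KLK15 over KLK3 passed in 6 of its 8 comparisons and KLK11 over KLK3 in 4 of 8. Both genes are so low that the pseudocount takes up much of their value, so their ratios are given as counts only. Of the summed TPM of the 5 genes, KLK3 made up 82.7% ± 2.52 before castration (SD over the tumors of a group), 79.5% ± 5.84 for POST-CX, 85.9% ± 3.35 for CRPC, 74.5% ± 8.59 for ENZS and 68.5% ± 11.2 for ENZR. The share of KLK4 was 7.74% ± 2.78, 15.3% ± 5.87, 9.59% ± 1.98, 21.7% ± 8.34 and 26.4% ± 11.8 in the same order.

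The spread between tumors was compared because relapsed tumors, CRPC as well as ENZR, were collected by PSA or by size. On average a tumor deviated from its group's median log2(TPM + 1) by 1.35 for KLK3 in ENZR, against 0.89 in ENZS and 0.33 in CRPC, and by 0.73 for KLK4, against 0.43 and 0.16. Of 10 permutation tests (5 genes, ENZR against ENZS and against CRPC), 0 passed after adjustment and 1 had an unadjusted p under 0.05, KLK3 against CRPC (permutation p = 0.0396, adjusted p = 0.256).

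Within groups, KLK2 followed KLK3 in 4 of 5 groups on log2(rescaled TPM + 1), with adjustment over 30 correlations (6 genes in 5 groups). Pearson's r of KLK2 with KLK3 was 0.83 in PRE-CX (exact permutation, adjusted p = 0.0286), 0.92 in POST-CX (exact, adjusted p = 0.00719), 0.83 in ENZS (permutation, adjusted p = 0.00719) and 0.89 in ENZR (permutation, adjusted p = 0.000900). Spearman's rho was 0.67, 0.95, 0.73 and 0.75, with adjusted permutation p of 0.147, 0.0178, 0.0253 and 0.0178 (exact in the smaller 2 groups). Without the 2 tumors farthest from the KLK3 median, which leaves 7, 6, 10 and 13 tumors over a narrower range of KLK3, r was 0.48, 0.90, 0.63 and 0.82 (permutation, adjusted p = 0.428, 0.142, 0.178 and 0.0198). The relation thus passed without those tumors in ENZR and not in PRE-CX, POST-CX or ENZS. Fewer tumors over a narrower range can lose a call by themselves, and in POST-CX r was nearly the same. A lost call therefore does not show that the relation rested on those 2 tumors. In CRPC, where KLK3 varied least, r was 0.18 (permutation, adjusted p = 0.697) and rho 0.13 (adjusted permutation p = 0.816).

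KLK4 followed KLK3 in ENZS (r = 0.90, rho = 0.81, permutation, adjusted p = 0.00585 and 0.0178) and in ENZR (r = 0.80, rho = 0.71, permutation, adjusted p = 0.00585 and 0.0178). Without the 2 farthest tumors r was 0.58 in each and missed the threshold (permutation, adjusted p = 0.188 and 0.168), so neither call held without them. Without the tumor of low human total, r in ENZR was 0.62 and missed the threshold (permutation, adjusted p = 0.0522). The relation did not pass in PRE-CX (r = 0.33), POST-CX (r = 0.62) or CRPC (r = 0.46), but with deposited TPM it passed in POST-CX (r = 0.87, exact permutation, adjusted p = 0.0441). KLK15 followed KLK3 in PRE-CX (r = 0.76), POST-CX (0.83), ENZS (0.86) and ENZR (0.67), with rho of 0.88, 0.83, 0.78 and 0.70. Without the POST-CX tumor of low human total, r there was 0.69 and rho 0.75, and neither passed (exact permutation, adjusted p = 0.169 and 0.166). Without the 2 farthest tumors r was 0.94, 0.78, 0.70 and 0.60 and passed in PRE-CX only (exact permutation, adjusted p = 0.0327). The other 3 calls were lost with fewer tumors and a narrower range of KLK3. KLK11 passed in 0 of 5 groups. Of the androgen-induced genes outside the cluster, FKBP5 and TMPRSS2 each passed in 0 of 5 groups by Pearson's r, with the highest r 0.63 for FKBP5 (POST-CX and ENZR) and 0.67 for TMPRSS2 (PRE-CX). By rank, FKBP5 passed in ENZR (rho = 0.73, permutation, adjusted p = 0.0178) and TMPRSS2 in PRE-CX (rho = 0.83, exact permutation, adjusted p = 0.0253). These counts depended on 1 ENZR tumor and on the scaling. Without the ENZR tumor of low human total both passed in ENZR by Pearson's r, FKBP5 at 0.65 and TMPRSS2 at 0.67 (permutation, adjusted p = 0.0368 and 0.0359). With deposited TPM both passed in ENZR (r = 0.82 and 0.89, permutation, adjusted p = 0.00327 and 0.00250), and TMPRSS2 also in POST-CX (r = 0.82, exact permutation, adjusted p = 0.0244). Whether the kallikreins followed KLK3 more closely than these genes was not tested.

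**Figure D4:**
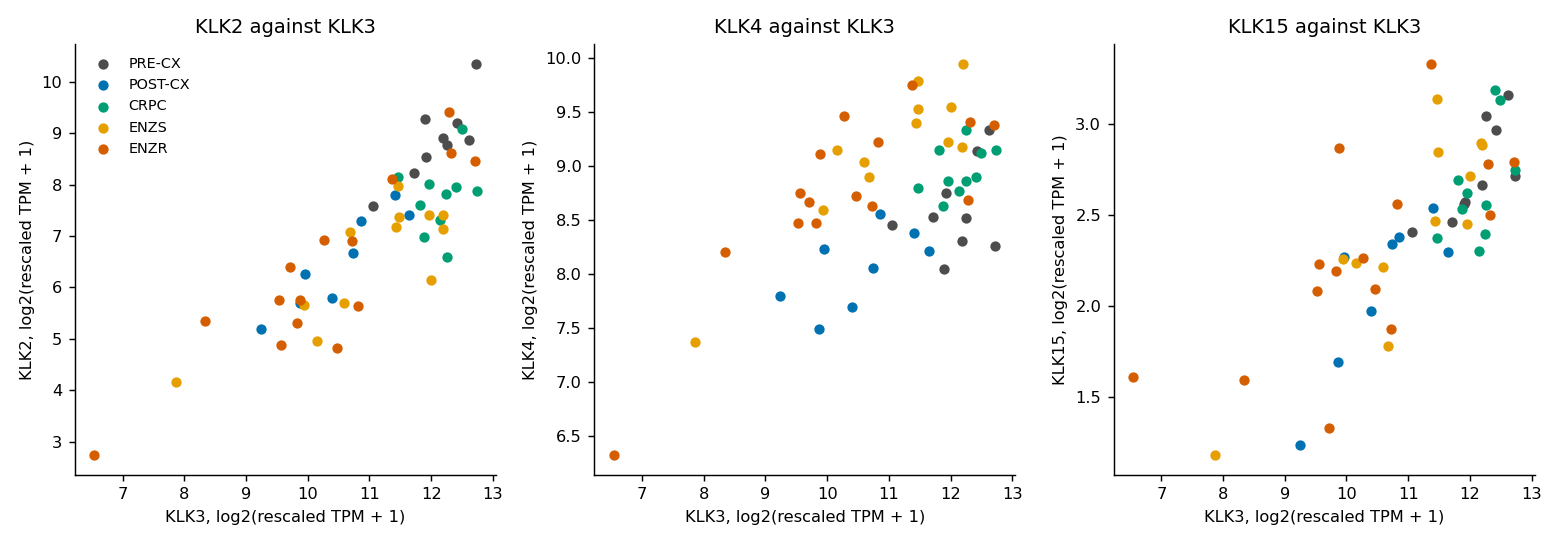
KLK2, KLK4 and KLK15 (vertical axes) against KLK3 (horizontal axis) in 54 tumors, all as log2(rescaled TPM + 1), colored by group. KLK2 rises with KLK3 in every group but CRPC (r = 0.18), though in PRE-CX the rank correlation (rho = 0.67) did not pass. In the KLK4 panel, 5 of 12 ENZS and 11 of 15 ENZR points lie at lower KLK3 than any PRE-CX point. For these no PRE-CX point of like KLK3 is there to compare.

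KLK11 reached 1 TPM in 4 of 54 tumors. Deposited TPM of KLK11 was 133 in PRE-CX mouse 111, 9.76 in PRE-CX mouse 112, 7.35 in POST-CX mouse 99 and 1.13 in ENZS mouse 28, and below 1 in the other 50 tumors, with 25 of 54 at 0. KLK11 did not pass the expression filter. When tested without it, KLK11 was called lower than PRE-CX in ENZS (-1.20, limma adjusted p = 0.0493) and ENZR (-1.31, adjusted p = 0.0318), where the PRE-CX median was 0.250 TPM and 2 of 9 PRE-CX tumors were at 1 TPM or more. KLK14, a trypsin-like kallikrein that lies beyond KLK11 in the cluster, was at 7.90 and 9.76 TPM in PRE-CX mice 111 and 112 and at most at 1.64 TPM elsewhere. In PRE-CX mouse 111, KLK10 (1.70 TPM), KLK12 (2.28 TPM) and KLK13 (0.910 TPM) also had their highest values of all 54 tumors. In these 2 tumors KLK3 was at 3727 and 6333 TPM, inside and at the top of the PRE-CX range, and KLK4 was at 256 and 285 TPM, below the PRE-CX median of 316 TPM.

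**Figure D5:**
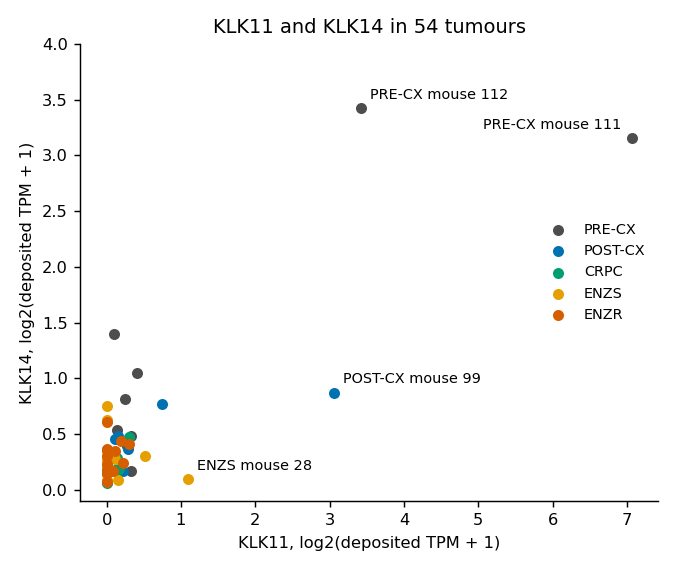
KLK11 (horizontal axis) and KLK14 (vertical axis) as log2(deposited TPM + 1) in 54 tumors, colored by group, with the 4 tumors at 1 TPM or more of KLK11 named. PRE-CX mice 111 and 112 stand apart in both genes, and POST-CX mouse 99 in KLK11 only.

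Of the 11 other kallikreins in the table, KLK1 and KLKP1 passed the expression filter. KLK1 is tissue kallikrein, which releases kinins, and its group medians were 0.430 TPM in POST-CX and 0.810 to 1.34 TPM in the other groups, with no comparison called. The POST-CX mean of 1.60 TPM was carried by mouse 99 at 9.26 TPM, with 0.240 to 1.10 TPM in the other tumors of the group. KLKP1 rose in ENZS against PRE-CX, from 4.53 ± 0.896 TPM (SD, n = 9) to 11.0 ± 4.27 TPM (n = 12), or by 1.04 in log2 units (SE 0.26, limma adjusted p = 0.000996). In CRPC it was at 9.58 ± 2.76 TPM (n = 10), a difference of 0.90 that fell short of the size for a call (adjusted p = 0.0256), and in ENZR at 8.71 ± 3.97 TPM (n = 15). Over the 54 tumors KLKP1 was the gene most like KLK4 among 11156 genes (r = 0.66 on log2 rescaled TPM, a description over tumors of 5 groups). For KLK3 and KLK2 the most alike gene outside the members was C19orf48 (r = 0.83 and 0.86), now annotated as a pseudogene. It lies at 50797704 to 50804594 of chromosome 19, 14551 bases before KLK1, at the end of the cluster that holds KLK15, KLK3 and KLK2. Other genes among the most alike were CENPN, LINC00844 and RRP15 for KLK3 and CENPN, HOMER2, EBP and NOP16 for KLK2. KLK15 was most like C19orf48 (0.72), USP43, CENPN and AC092718.4, KLK4 after KLKP1 was most like ENO1-AS1, VIPR1, C12orf73 and PRR15L, and KLK11 was most like ODC1 (0.61), PPP1R1B, SLC10A7, RPL22 and ATP5MC2. Between the members r over all tumors was 0.86 for KLK2 with KLK3, 0.61 for KLK4 with KLK3 and 0.42 for KLK4 with KLK2. After each group's mean was taken out, r was 0.84, 0.78 and 0.64 in the same order.

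Androgen-induced genes outside the cluster give the setting of these changes. Of 35 listed, 34 were tested. Against PRE-CX, 24 fell in POST-CX, 14 in CRPC, 18 in ENZS and 25 in ENZR, and 0 rose (with rescaled TPM 19, 17, 17 and 23 fell). Over all genes 2.62%, 3.17%, 12.7% and 8.55% were called in either direction (rescaled 3.75%, 3.4%, 13.9% and 10.5%). The median log2 differences of the list were -1.40, -0.92, -1.09 and -1.60, beside -0.05, 0.11, 0.26 and 0.07 over all genes. FKBP5, a co-chaperone of steroid receptors, fell in all 4 groups, with differences of -2.64 (SE 0.40) in POST-CX, -2.28 (SE 0.38) in CRPC, -2.91 (SE 0.36) in ENZS and -3.42 (SE 0.35) in ENZR (limma adjusted p 4.56e-06, 2.49e-05, 6.67e-09 and 1.89e-11). In CRPC it stayed at 30.9 ± 14.7 TPM (SD, n = 10) against 161 ± 96.5 TPM in PRE-CX (n = 9), while 0 of 10 CRPC tumors lay below the PRE-CX range of KLK3. TMPRSS2, a serine protease of the cell surface, fell in POST-CX (-1.89), in ENZS (-1.72) and in ENZR (-2.17), and in CRPC was called only with rescaled TPM (-1.14). The widest falls of the list were HPGD (-3.44) and STEAP4 (-3.39) in POST-CX, HPGD (-3.61) and KCNMA1 (-3.02) in CRPC, SLC45A3 (-3.45) and HPGD (-3.43) in ENZS, and SLC45A3 (-4.37) and KCNMA1 (-3.85) in ENZR. Against CRPC, ENZR had 4 of 34 lower, SLC45A3 (-2.02) by most, and 0 higher, but 2 lower after rescaling. Over all genes 1.37% were called there as deposited and 1.52% rescaled. HPGD breaks down prostaglandins, STEAP4 reduces metal ions, KCNMA1 is a potassium channel and SLC45A3 a prostate membrane transporter.

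Regulators of these genes were compared in the same way. FOXA1 and HOXB13, transcription factors of prostate epithelium, were not called in any comparison, with group means of 219 to 294 TPM and 115 to 166 TPM. NR3C1, the glucocorticoid receptor gene, rose against PRE-CX in ENZS (1.67, SE 0.28, limma adjusted p = 3.03e-06) and in ENZR (1.37, SE 0.27, adjusted p = 6.99e-05), and the coactivator gene NCOA2 rose in CRPC (1.03, not after rescaling).

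Of 21 genes for substrates, inhibitors and partners of kallikreins, 10 were tested. FN1 (fibronectin, a KLK substrate) rose against PRE-CX in CRPC (1.64), ENZS (2.59) and ENZR (2.77), and after rescaling also against CRPC in ENZS (1.02) and ENZR (1.41). Stroma of these tumors came from the mouse, while the FN1 values are those of the human gene. The summed human TPM of the stromal and blood markers, which do not include FN1, were higher in the same groups. Medians were 26.7, 46.8 and 53.9 TPM in CRPC, ENZS and ENZR beside 14.6 TPM in PRE-CX. Single markers went both ways between PRE-CX and ENZR, with medians of 0.790 and 19.4 TPM for COL3A1 and of 4.27 and 0.960 TPM for VWF. The part of these markers in the FN1 differences was not tested. SERPINA3, the main inhibitor that binds PSA in serum, rose in ENZS against PRE-CX by 1.32 (SE 0.26, limma adjusted p = 5.27e-05) and against CRPC by 1.16 (SE 0.25, adjusted p = 0.00179). IGFBP3, an IGF binding protein that PSA can cleave, was lower in CRPC than in PRE-CX (-1.13) and higher in ENZS than in CRPC (1.17). F2R and F2RL1, receptors opened by proteases, fell in ENZR against PRE-CX (-1.16 and -1.18), the latter not called after rescaling. Of the 10 tested, TMPRSS2 among them, 1 fell in POST-CX, 1 rose and 1 fell in CRPC, 3 rose and 1 fell in ENZS, and 1 rose and 3 fell in ENZR, where 2.62%, 3.17%, 12.7% and 8.55% of all genes were called in either direction. After rescaling 1 rose and 2 fell in CRPC and in ENZR, and the other counts did not change. The median log2 differences of the 10 were -0.25, -0.12, -0.00 and -0.35, beside -0.05, 0.11, 0.26 and 0.07 over all genes. Among other secreted prostate proteins 7 of 12 were tested, and MSMB, which encodes beta-microseminoprotein, fell against PRE-CX in POST-CX (-1.69), CRPC (-1.55), ENZS (-1.76) and ENZR (-1.62). AZGP1 fell in ENZR only (-1.66) as deposited and in CRPC too after rescaling (-1.52), and 0 genes of the list rose.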

How the data were processed

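Gene expression was measured by RNA-seq in 54 LNCaP xenograft tumors. According to the study's methods and the submitters' processing notes, stranded polyA libraries were sequenced as paired reads of 125 bases (about 40 M pairs per library), checked with FastQC 0.11.9, trimmed with Trim Galore 0.6.5, aligned with STAR 2.7.2b to a joint human GRCh38 and mouse GRCm38 reference, and quantified with RSEM 1.3.3. For each human gene symbol, the authors deposited TPM. TPM divide by transcript length, so levels can be compared between genes, but they hold no read depth, and the depth of single tumors is unknown. Precision therefore rests on the number of tumors.

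Groups came from the labels. The 5 kallikreins and all gene lists were chosen with earlier results of these data known, so nothing here is an independent test of their choice. The 17131 genes that reached 1 TPM in 8 or more tumors were tested with limma 3.58.1 (R 4.3.3) on log2(TPM + 1), in 1 fit of 5 group means with a trended empirical Bayes step. Adjustment was by Benjamini-Hochberg over all genes of a comparison. Named were the 5 members, kallikreins with a group mean of at least 1 TPM, FOXA1, HOXB13, FKBP5, TMPRSS2, up to 2 called genes with the largest rise and fall of each list and comparison described, and the 5 genes most like each member. KLK10, KLK12 and KLK13 were named after their values were seen, and some genes that the rule takes are not reported here. Ratios, spreads and correlations were tested by permuting tumors (Python 3.11.15, NumPy 2.4.6), and all tests were tried on simulated data. Promoters came from RefSeq and were aligned with Biopython 1.88. Alternatives were rescaled and median-centered TPM, a pseudocount of 0.1, no filter, no tumors of low human total, no trend, and only the groups compared.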

Additional observations from a re-analysis of the deposited data

Results flagged for a closer look

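Of 39 sets of values checked (13 genes in the 3 groups of at most 10 tumors), 10 held a tumor far from the others of its group by Dixon's criterion. The criterion flags about 1 set in 20 by chance where values are normally distributed. It was applied to TPM without logs, which are often skewed, so the 10 sets cannot be compared with that rate. Several fell in the same tumors. In PRE-CX mouse 112, KLK2 was at 1222 TPM (others 158 to 605), FKBP5 at 396 TPM (others 89.0 to 217) and TMPRSS2 at 912 TPM (others 312 to 609). In CRPC mouse 81, KLK2 was at 528 TPM (others 89.9 to 253) and FKBP5 at 68.5 TPM (others 17.9 to 41.4). KLK3 itself did not stand apart in either tumor.

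KLK11 was at 133 TPM in PRE-CX mouse 111 (others 0.0700 to 9.76) and at 7.35 TPM in POST-CX mouse 99 (others 0 to 0.670), where KLK1 was at 9.26 TPM (others 0.240 to 1.10). A further KLK11 value, 0.230 TPM in CRPC mouse 29 (others 0 to 0.12), is near 0. FKBP5 was at 3.92 TPM in POST-CX mouse 91 (others 21.2 to 32.4), the tumor with a human total of 27.9%.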

How the results depend on the processing

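No paired analysis was possible because no mouse number is shared between groups. Of the 288 single log2 differences under an alternative, 250 kept their direction and their side of the threshold, 29 passed only under the alternative, 2 passed only under the settings used throughout and 7 changed sign. Of the 248 single ratios, spreads and correlations, 232 did so. The members called against PRE-CX went from 1 to 2 in POST-CX and in ENZS with rescaled TPM, with centering on each tumor's median, without the tumors of low human total, with only the groups compared, and with rescaling and leaving out together (added after seeing the data). Without a filter, which let KLK11 be tested, 2 were called in ENZS. In ENZS against CRPC the same 5 settings gave 2 in place of 0. In ENZR against CRPC 2 in place of 1 were called with rescaled or centered TPM and with rescaling and leaving out together, and 0 without a filter or with only the groups compared. Only the groups compared gave 1 in place of 0 for CRPC against PRE-CX and 2 in place of 0 for CRPC against POST-CX. For the difference between the relapse steps, centering gave 2 and leaving out the tumors of low human total 1, in place of 0. The cause was not tested.

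Over all genes, a pseudocount of 0.1 raised the calls from 448 to 742 in POST-CX, from 543 to 1093 in CRPC, from 2180 to 3647 in ENZS and from 1464 to 2620 in ENZR against PRE-CX, and from 414 to 761 in ENZS against CRPC. CRPC against POST-CX went from 0 to 2 (rescaled), 7 (centered), 5 (without tumors of low human total), 27 (only the groups compared) and 15 (rescaled and left out together), and ENZR against ENZS from 1 to 0 in every alternative. ENZR against CRPC went from 234 to 155 without a filter. The relapse steps went from 32 to 13 (rescaled), 64 (centered), 21 (pseudocount 0.1), 3 (no filter) and 8 (only the groups compared). The share of called genes that were higher moved from 35% to 65.5% in POST-CX and from 54.4% to 72.5% in ENZR against PRE-CX, from 44.9% to 56.1% in ENZS against CRPC and from 12.4% to 44.8% in ENZR against CRPC with rescaling.

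Direction changed for values near 0. KLK3 in CRPC against PRE-CX went from 0.09 to -0.03 (centered), KLK4 in ENZR against PRE-CX from -0.08 to 0.16 (rescaled), 0.27 (without tumors of low human total) and 0.33 (both), KLK4 in ENZS against CRPC from 0.11 to -0.03 (centered), and KLK2 in ENZR against ENZS from -0.32 to 0.06 and 0.08 without tumors of low human total, the latter rescaled. The KLK11 to KLK3 ratio in ENZS against PRE-CX went from -0.07 to 2.53 (difference in mean ranks) and in ENZR against PRE-CX from 0.73 to -0.63 (pseudocount 0.1). The difference in spread of KLK4 in ENZR against ENZS went from 0.29 to -0.02 without tumors of low human total, and the correlation of FKBP5 with KLK3 in PRE-CX from -0.03 to 0.02 with deposited TPM. TPM give no counting error, and at the levels of KLK11 and KLK15 small changes could not be seen.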
